A study of Mus musculus with 2 samples.

Results

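POU homeobox genes encode transcription factors that bind DNA through a POU-specific domain and a linked homeodomain, and the family takes its founding binding site, the octamer ATGCAAAT, from promoters of immunoglobulin, histone H2B and snRNA genes. The 9 genes described here were chosen by symbol, from POU classes 2, 3, 4 and 6, among the 43346 Ensembl genes of the tables. They are Pou2f1, Pou3f1, Pou3f2, Pou3f3, Pou3f4, Pou4f1, Pou4f2, Pou4f3 and Pou6f1, and all 9 were found. Their level in hindbrain was measured by total RNA-seq in B6NCrl mouse embryos of day 11.5 of gestation. There is 1 group with 2 biological replicates, both of healthy tissue from males and females together: pool 1 joined hindbrains of 109 embryos and pool 2 those of 88. Libraries started from 10 ng of RNA above 200 nt with ERCC spike-ins, which are synthetic RNAs of known sequence. No transgene, mutation or treatment is given for either pool. With 1 library per pool there was no test between them, so levels are given per pool and differences between pools are descriptions.

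In the developing nervous system the classes have different known roles. Class 3 factors (the Brn1, Brn2, Brn4 and Oct6 genes of the older literature) act in neural progenitors and young neurons, often on sites shared with Sox proteins. Class 4 factors (Brn3a, Brn3b and Brn3c) are expressed as neurons leave the cell cycle, in sensory ganglia, retinal ganglion cells, hair cells and selected brainstem neurons. Pou2f1, known as Oct1, is made in most cell types, and Pou6f1, known as Brn5, is best described in the brain.

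Pool 1 was sequenced to 45340440 expected counts and pool 2 to 41261544, with 41982915 and 36833678 of them on Ensembl genes. An expected count is an estimated read number that need not be whole. The 9 POU genes drew 17153 counts in pool 1 and 17396 in pool 2, or 0.0409% and 0.0472% of the counts on genes. Entries that are not Ensembl genes, spike-ins among them, held 16.2% and 22.2% of TPM, and the log2 ratio of the median expressed gene, pool 1 over pool 2, was 0.11. Differences between the pools are therefore given as log2 of (TPM + 1) in pool 1 over (TPM + 1) in pool 2, minus that median, which was taken over 14942 genes whose mean TPM was 1 or more. This scale understates differences of low genes. Of 6 markers listed for hindbrain 6 reached 1 TPM in both pools, but Tubb3 (762 and 654 TPM) and Sox2 (25.2 and 15.4) are expressed in neural tissue of any region. The regional ones were Hoxa2 (49.3 and 48.1), Hoxb2 (48.9 and 46.4), Gbx2 (27.6 and 21.0) and, lowest, Hoxb1 (6.18 and 4.97). Of 5 midbrain markers 3 did so, led by Otx2 (10.3 and 9.28 TPM) and Otx1 (1.47 and 2.06) with Helt lowest (0.26 and 0.45), and 0 of 4 forebrain markers did so, with Nkx2-1 at 0.23 and 0.07 TPM and Rax lowest (0.04 and 0.05).

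Among the 9 genes, POU transcripts belonged mainly to class 3 and to Pou4f1. Pou2f2, a class 2 gene outside the 9, is not counted in what follows, at 29.8 TPM in pool 1 and 34.8 TPM in pool 2. Summed over the 9 genes, TPM, a transcript's share of the library adjusted for its length, stood at 162 in pool 1 and 157 in pool 2. The 4 class 3 genes held 47.5% of that sum in pool 1 and 57.7% in pool 2, and the 3 class 4 genes held 35.2% and 25.5%. Pou2f1 held 11.8% and 11.4%, and Pou6f1 held 5.49% and 5.39%. Detection, at 1 TPM or more in each pool, was reached by 8 of the 9, all but Pou4f3, against 59.4% of protein-coding genes and 33% of all genes. Among protein-coding genes averaging 1 TPM or more, the 8 ranged from Pou4f1, above 75.9% of them, to Pou4f2, above 9.79%.

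Ordered by mean TPM over both pools (± SD, n = 2), Pou4f1 (45.6 ± 10.6) stood above Pou3f2 (38.8 ± 7.52), Pou2f1 (18.5 ± 0.905), Pou3f4 (16.5 ± 4.0), Pou3f3 (15.5 ± 0.141), Pou3f1 (13.1 ± 1.56), Pou6f1 (8.69 ± 0.290), Pou4f2 (2.26 ± 0.693) and Pou4f3 (0.665 ± 0.615). Of the 8 pairs of neighbours in this order, the pools' ranges overlapped for Pou4f1 and Pou3f2, for Pou2f1 and Pou3f4, and for Pou3f4 and Pou3f3. Pou4f1 was 1.59 times Pou3f2 in pool 1 and 0.864 times in pool 2, so the top place changed hands between the pools. The genes from Pou3f3 down kept their order among themselves in both pools, each clear of the next. Pou3f4 moved past some of them, from rank 6 in pool 1, below Pou3f1, to rank 3 in pool 2.

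**Figure D1:**
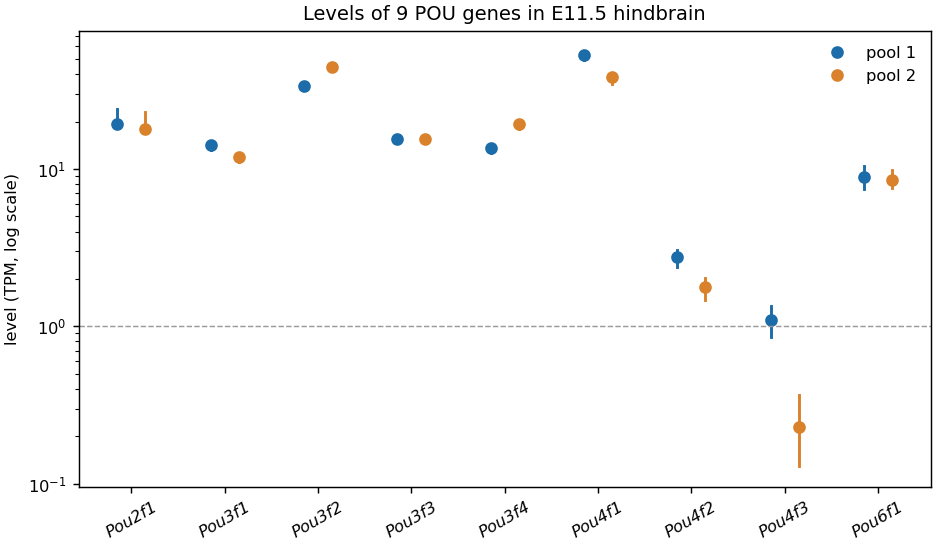
Level of each POU gene in TPM (log axis) in pool 1 (blue) and pool 2 (orange); vertical lines are the deposited TPM intervals, whose level is not stated, and the dashed line marks 1 TPM. Pou4f1 (53.1 and 38.1) and Pou3f2 (33.5 and 44.2) lead, and Pou4f3 (1.10 and 0.23) is the one gene under the line in a pool.

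The class 3 genes were each expressed well above detection. All 4 are single-exon genes, whereas each of the other 5 has a transcript of 2 exons or more. Each also has 1 annotated transcript, so their TPM rests on no division of reads among isoforms. Their counts were whole numbers in both pools, as were those of the 3 class 4 genes. For 6 of these 7 the deposited posterior SD of the count was 0 in both pools, and for Pou3f1 it was 0.33 counts in pool 1 and 0.28 counts in pool 2.

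Pou3f2, or Brn2, acts with Pou3f3 in the production and migration of cortical neurons and is used with other factors to turn fibroblasts into neurons. It lies on chromosome 4 from 22482780 to 22488366, minus strand (GRCm38), and had 33.5 TPM in pool 1 (5408 counts, deposited interval 32 to 33.7) and 44.2 TPM in pool 2 (6847 counts, 42.3 to 44.3). The pools' intervals were apart, with pool 2 higher. Each deposited interval describes raw TPM of 1 library and not the variation between pools of embryos. The pools' intervals were apart for 6 of the 9 genes, among them Pou3f1. Its raw TPM in pool 1 was 1.18 times that in pool 2, or 1.09-fold on the scale relative to the median gene. The share of all genes with intervals apart was not computed, so being apart is a description here and below. Pou3f2 supplied 43.5% of class 3 TPM in pool 1 and 48.6% in pool 2, the largest share in both.

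Pou3f3, or Brn1, is known from cortex, hippocampus and kidney (chromosome 1, 42695768 to 42703176, plus strand). It had 15.6 TPM in pool 1 (3349 counts) and 15.4 TPM in pool 2 (3177 counts). In raw TPM these were the closest pair of values among the 9 genes, and the intervals overlapped. Its rank among the 9 was 2 by counts in both pools, and 4 in pool 1 and 5 in pool 2 by TPM, since its transcript of 7409 nt is the longest of class 3.

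Pou3f4, or Brn4, is an X-linked gene of neural tube and inner ear mesenchyme whose loss causes deafness in humans (X chromosome, 110814280 to 110817207, plus strand). It had 13.7 TPM in pool 1 (1137 counts, interval 12.6 to 14.2) and 19.3 TPM in pool 2 (1545 counts, 18.0 to 19.9). Pool 2 was higher, again with the intervals apart.

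Pou3f1, or Oct6, is best known for the timing of myelination in Schwann cells (chromosome 4, 124656807 to 124660655, plus strand). It had 14.2 TPM in pool 1 (1565 counts, interval 13.2 to 14.6) and 12.0 TPM in pool 2 (1270 counts, 11.1 to 12.4). Pool 1 was the higher, the reverse of Pou3f2 and Pou3f4.

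Sequence upstream of 3 class 3 genes held copies of CCAAT, a short promoter element that several general factors bind. RefSeq (GRCm38.p6) gave a start site for 7 of the 9 members, not counting Pou3f1 and Pou4f3, and the 250 bases before each start were searched on both strands for CCAAT (or ATTGG). Pou3f2 had 2 copies, Pou3f3 had 3 and Pou3f4 had 3, and the windows of Pou2f1, Pou4f1, Pou4f2 and Pou6f1 had 0. Of 32851 such windows in RefSeq, 33.8% held at least 1 copy, 10.1% at least 2 and 2.79% at least 3. The element was picked after the windows had been read, so the counts describe these genes and nothing more. The windows of the class 3 genes are shown with each CCAAT in capitals, 5′ to 3′ towards the gene, beside that of Pou4f1, which has no copy. The intervals are chr4:22488367-22488616 on the minus strand for Pou3f2, chr1:42695518-42695767 on the plus strand for Pou3f3, chrX:110814129-110814279 on the plus strand for Pou3f4 and chr14:104468000-104468249 on the minus strand for Pou4f1. For Pou3f4 only the 151 bases upstream of the annotated GENCODE transcript are printed, with 1 of its 3 copies.
Pou3f2: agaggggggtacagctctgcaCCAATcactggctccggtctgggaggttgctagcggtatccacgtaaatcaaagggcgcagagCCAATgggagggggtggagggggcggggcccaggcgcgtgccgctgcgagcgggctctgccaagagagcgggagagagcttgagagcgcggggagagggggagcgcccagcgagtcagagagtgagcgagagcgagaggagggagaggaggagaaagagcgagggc
Pou3f3: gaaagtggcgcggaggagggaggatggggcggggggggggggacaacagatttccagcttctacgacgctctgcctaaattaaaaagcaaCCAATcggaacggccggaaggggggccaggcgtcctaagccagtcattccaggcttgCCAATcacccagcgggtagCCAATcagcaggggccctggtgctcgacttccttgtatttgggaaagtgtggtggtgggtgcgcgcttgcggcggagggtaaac
Pou3f4: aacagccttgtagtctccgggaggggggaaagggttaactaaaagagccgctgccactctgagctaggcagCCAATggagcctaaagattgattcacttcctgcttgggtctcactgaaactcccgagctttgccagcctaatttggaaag
Pou4f1: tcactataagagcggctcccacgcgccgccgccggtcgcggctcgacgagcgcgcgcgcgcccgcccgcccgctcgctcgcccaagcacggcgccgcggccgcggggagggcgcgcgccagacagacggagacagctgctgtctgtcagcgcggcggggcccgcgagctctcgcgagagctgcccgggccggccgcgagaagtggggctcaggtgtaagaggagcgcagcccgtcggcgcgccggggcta

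The copies differ in spacing: both of Pou3f2 lie in the far part of its window, whereas those of Pou3f3 lie near its middle. The Pou4f1 window was the richest in G and C of the 4 at 78.0%, against 66.8% for Pou3f2, 60.8% for Pou3f3 and 58.0% for the whole 250-base window of Pou3f4. The family's own octamer, ATGCAAAT (or ATTTGCAT), was in 0 of the members' windows and in 1.6% of all windows. Its first 7 letters, ATGCAAA (or TTTGCAT), were in that of Pou6f1 alone, 1 time, and in 4.12% of all windows. A match is a run of letters and not a measured binding site.

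Pou4f1, or Brn3a, a factor of sensory neuron differentiation and survival, led the family by TPM in pool 1. The gene lies on chromosome 14 from 104461676 to 104467999, minus strand. It had 53.1 TPM in pool 1 (2891 counts, interval 49.0 to 55.4) and 38.1 TPM in pool 2 (2000 counts, 34.8 to 40.3). Pool 1 was higher and the intervals were apart. Pou4f1 supplied 93.2% of class 4 TPM in pool 1 and 95% in pool 2.

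The first place of Pou4f1 rested on a short transcript without a coding sequence. Pou4f1-202, a processed transcript of 799 nt in 2 exons, had 36.4 TPM in pool 1 (deposited interval 32.4 to 39.0) and 26.0 TPM in pool 2 (22.7 to 28.5). Pou4f1-201, the protein-coding transcript of 4445 nt in 3 exons, had 16.8 TPM in pool 1 (15.6 to 17.2) and 12.1 TPM in pool 2 (11.2 to 12.5). Pou4f1-202 thus held 68.4% and 68.3% of the gene's TPM, while Pou4f1-201 held 74.1% and 74.2% of its reads. The split was almost the same in both pools. Exon 2 of Pou4f1-202, 572 nt, lies wholly within the last exon of Pou4f1-201, and its exon 1, 227 nt from 104465139 to 104465365, lies within an intron of Pou4f1-201. Only that exon and its junction set Pou4f1-202 apart, and the tables give no reads per exon. In these tables reads of unspliced Pou4f1 RNA over that intron cannot be told apart from reads of exon 1, so the level and share of Pou4f1-202 may include them. Exon 1 is shown because the assignment turns on it, from the GENCODE vM21 transcript at chr14:104465139-104465365, minus strand, with the last 20 bases, which adjoin the shared exon, in capitals.
Pou4f1-202 exon 1: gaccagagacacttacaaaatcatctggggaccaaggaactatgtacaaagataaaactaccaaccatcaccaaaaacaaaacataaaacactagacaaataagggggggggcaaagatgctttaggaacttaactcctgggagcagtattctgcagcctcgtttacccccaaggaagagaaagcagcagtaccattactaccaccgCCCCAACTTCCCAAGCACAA

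**Figure D2:**
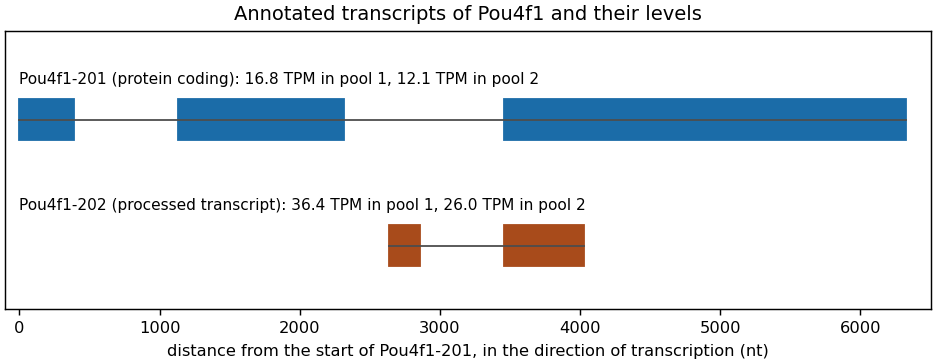
Exons (boxes) of the coding Pou4f1-201 and the processed transcript Pou4f1-202, by distance in nt from the start of Pou4f1-201 in the direction of transcription, with each transcript's TPM in pool 1 and pool 2. The first exon of Pou4f1-202 falls between exons 2 and 3 of Pou4f1-201, and its exon 2 lies inside exon 3.

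Counted over coding transcripts alone, Pou3f2 led the family in both pools. On that measure Pou3f2 kept its 33.5 TPM in pool 1 and 44.2 TPM in pool 2, and Pou4f1 stood at 16.8 and 12.1 TPM, rank 3 in pool 1 and rank 5 in pool 2. With all reads of Pou4f1 placed on the long transcript its level would be 22.6 TPM in pool 1 and 16.3 TPM in pool 2, again below Pou3f2. The same placement moves Pou2f1 further, to 4.49 TPM in pool 1 and 4.64 TPM in pool 2 and to rank 7 in both, because its longest coding transcript has 13050 nt, so the place of Pou2f1 by TPM also depends on how its reads are divided. By expected counts Pou3f2 had rank 1, Pou3f3 rank 2 and Pou4f1 rank 3 in both pools. The log2 difference of summed TPM between class 3 and class 4 was 0.43 in pool 1 and 1.16 in pool 2 (0.79 ± 0.52, SD, n = 2). Over coding transcripts it was 1.85 in pool 1 and 2.61 in pool 2 (2.23 ± 0.53), a measure added after the transcripts had been seen.

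**Figure D3:**
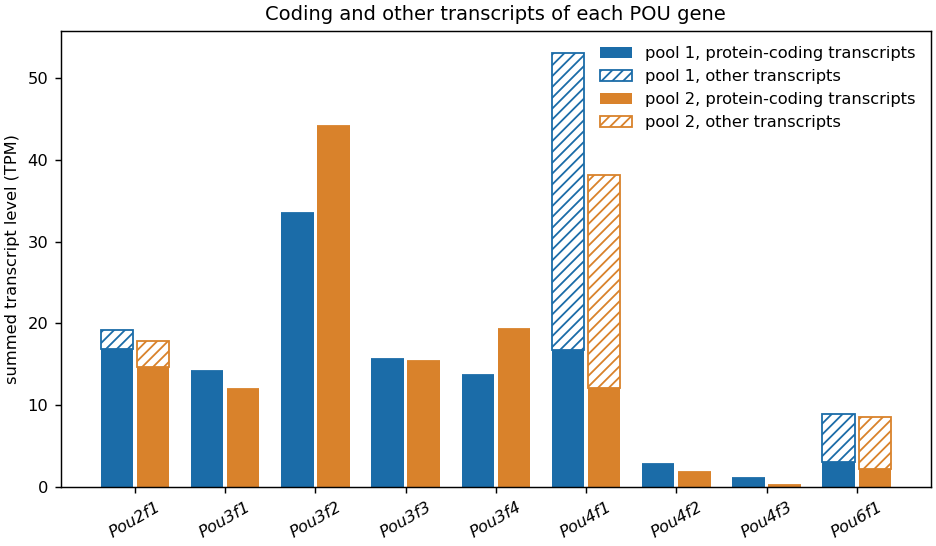
Summed TPM of protein-coding transcripts (filled) and other transcripts (hatched) of each POU gene, pool 1 in blue beside pool 2 in orange. Other transcripts exceed coding ones for Pou4f1 (36.4 against 16.8 TPM in pool 1) and Pou6f1 (5.84 against 3.03), and the genes of class 3 have coding transcripts only.

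The other class 4 genes stood near the detection level of 1 TPM. Pou4f2, or Brn3b, the retinal ganglion cell factor (chromosome 8, 78433010 to 78436645, minus strand), had 2.75 TPM in pool 1 (251 counts, interval 2.37 to 3.04) and 1.77 TPM in pool 2 (155 counts, 1.48 to 2.02). Pool 1 was higher, and the intervals were apart. Pou4f3, or Brn3c, the hair cell factor (chromosome 18, 42394539 to 42397249, plus strand), had 1.10 TPM in pool 1 (73 counts, 0.852 to 1.34) and 0.23 TPM in pool 2 (15 counts, 0.129 to 0.366). Relative to total counts this is a log2 ratio with an exact 95% binomial interval of 1.33 to 3.06, which covers counting error only and not the variation between pools of embryos.

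Pou2f1 and Pou6f1 stood level between the pools, and both are genes of many transcripts. Pou2f1 lies on chromosome 1 from 165865154 to 166002678, minus strand, and had 19.2 TPM in pool 1 (1711 counts, interval 18.3 to 23.9) and 17.9 TPM in pool 2 (1699 counts, 17.6 to 22.9). Of its 18 transcripts 4 reached 10% of the gene in a pool. The coding Pou2f1-209 (2591 nt) held 55.3% in pool 1 and 41.4% in pool 2. Pou2f1-217, a transcript of 592 nt annotated as coding, held 10.4% and 16.1%, the retained-intron transcript Pou2f1-211 held 7.66% and 13.3%, and the coding Pou2f1-206 held 4.33% and 10.2%. The division among them was poorly fixed, since the TPM of Pou2f1-209, 10.6 in pool 1 and 7.41 in pool 2, lay above its own deposited interval in both pools (4.33 to 10.3 and 1.01 to 6.66). Coding transcripts together held 88.1% of Pou2f1 TPM in pool 1 and 82.3% in pool 2.

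Pou6f1 (chromosome 15, 100575318 to 100599984, minus strand) had 8.89 TPM in pool 1 (768 counts, interval 7.41 to 10.4) and 8.48 TPM in pool 2 (688 counts, 7.56 to 9.89). Coding transcripts held 58.5% of its reads in pool 1 and 44.2% in pool 2. Of its TPM they held the smaller share, 34.2% in pool 1 and 25% in pool 2. The retained-intron transcript Pou6f1-208 (3654 nt) held 26.5% in pool 1 and 33.7% in pool 2, and the processed transcript Pou6f1-207 (764 nt) held 15.4% and 34.6%. The coding Pou6f1-204 held 17.2% in pool 1 and 15.1% in pool 2, the coding Pou6f1-202, which spans the whole gene, 16.9% and 9.91%, and the processed transcript Pou6f1-209 19.4% and 0%. The table's length for Pou6f1-204, 5301 nt, differs from that in GENCODE vM21, 4575 nt.

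The sums of class 3 and class 4 lay on opposite sides of the median gene when the pools were compared. Relative to the median gene, class 3 summed to a log2 ratio of pool 1 over pool 2 of -0.35 and class 4 to 0.39. Pou3f4 (-0.58) and Pou3f2 (-0.50) were lower in pool 1, Pou3f3 (-0.09) was near the median gene, and Pou3f1 (0.12) lay slightly above it. All 3 class 4 genes were higher in pool 1, with 0.36 for Pou4f1, 0.33 for Pou4f2 and 0.66 for Pou4f3. Pou2f1 (-0.01) and Pou6f1 (-0.05) lay close to it.

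Over 1.5-fold apart was 1 of the 9 genes, Pou4f3, higher in pool 1 at 1.58-fold, against 5.98% of genes averaging 1 TPM or more (1.63% higher in pool 1 and 4.35% higher in pool 2). Its own mean TPM is under 1, and among genes averaging 1 TPM or more with 20 to 100 counts, the range of its own mean count, 15% were past that fold. The number of POU genes past it was 0 with FPKM and 0 with DESeq2 scaling, and 2, with Pou3f4, at a pseudocount of 0.1. Pou3f4, at 1.49-fold, and Pou3f2, at 1.41-fold, lay just inside the limit. Both have over 1000 counts, and of the 7632 genes with so many only 1.53% were past 1.5-fold. At a limit of 1.25-fold, chosen after the values were seen, 3 of the 6 POU genes with 1000 counts or more were past it: Pou3f2 and Pou3f4, higher in pool 2, and Pou4f1, higher in pool 1 (1.28-fold). The background at that limit was 10.5%, made up of 4.07% higher in pool 1 and 6.42% higher in pool 2. Among all 7003 genes with 1000 to 10000 counts the central 95% of ratios ran from -0.47 to 0.37, so that Pou3f2 and Pou3f4 fell outside it and Pou4f1 inside. Among 5384 genes with 100 to 1000 counts it ran from -0.68 to 0.49, with Pou4f2 inside. In a bulk tissue fewer cells of a type and less RNA per cell cannot be told apart, and with 1 library per pool neither can the embryos and the library preparation.

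**Figure D4:**
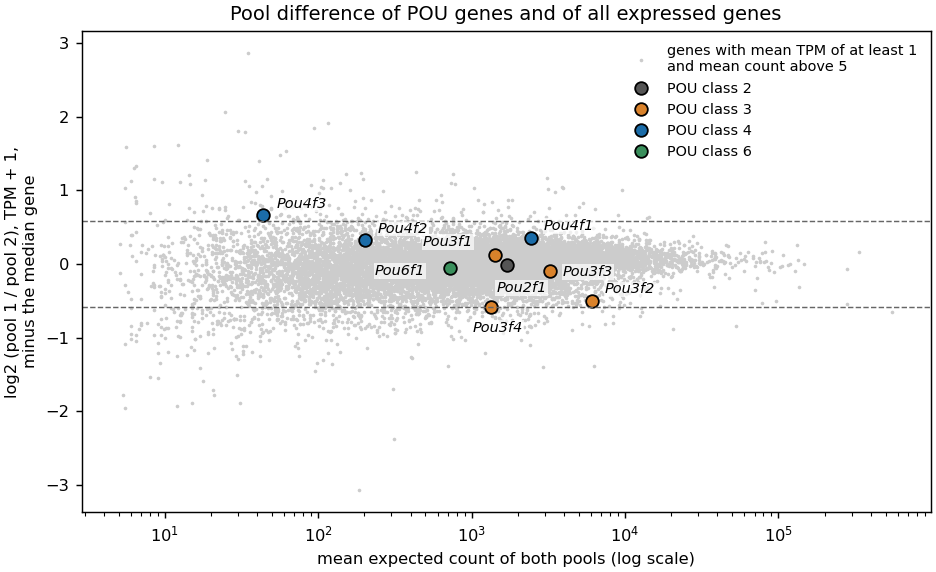
Pool difference (log2 of pool 1 over pool 2 on TPM + 1, minus the median gene) against mean expected count (log axis), for POU genes coloured by class and, in grey, genes averaging 1 TPM or more, a mean count above 5 and an annotated symbol; dashed lines mark 1.5-fold. Class 4 genes lie at 0.33 to 0.66, and Pou3f2 and Pou3f4 lie at -0.50 and -0.58, near the lower edge of the genes with similar counts.

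Most markers of sensory ganglia that averaged 1 TPM or more lay above the median gene, as Pou4f1, a defining gene there, did. Of 11 markers listed, 8 reached 1 TPM in both pools, and their sum was 234 TPM in pool 1 and 172 TPM in pool 2. Raw sums were higher in pool 1 for every companion list except the other POU genes of the mouse (32.4 and 39.2 TPM). A higher raw sum therefore sets no list apart. Of the 9 averaging 1 TPM or more, 7 had a ratio above that of the median gene, with a median of 0.29, against 50.1% of all genes; 0 were past 1.5-fold higher in pool 1 and 1, Runx1, was past it in pool 2. Avil, with a mean TPM under 1 like Pou4f3, was 1.72-fold higher in pool 1 (75 counts there and 17 in pool 2). None of the 11 was at 0 reads. The leading markers were the synuclein Sncg, 114 TPM in pool 1 and 84.5 TPM in pool 2, and the LIM homeobox gene Isl1, 45.4 and 31.6 TPM, and the lowest was Runx3, 0.16 and 0.19 TPM. The part of these cells in the Pou4f1 difference was not tested.

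Genes that Pou4f1 is known to regulate in mouse sensory ganglia are not a separate view, since 6 of the 11 are also on the list of ganglion markers. Of them 9 reached 1 TPM in both pools, and 6 of the 10 averaging 1 TPM or more lay above the median gene (median 0.17). That is near the share of all genes, 50.1%. Their sum was 149 TPM in pool 1 and 115 TPM in pool 2. Isl1 led, and Neurod1, a neurogenic bHLH factor, followed with 24.4 TPM in pool 1 and 21.8 TPM in pool 2. Factors of dorsal hindbrain interneurons, cells of which some also make Pou4f1, were all detected, 9 of 9. Of these 7 lay above the median gene, against 50.1% of all genes, with a median ratio of 0.17. The LIM genes Lhx9 (23.9 and 21.1 TPM) and Lhx2 (18.4 and 15.1) led them, and Foxd3 was lowest (1.90 and 1.54). The sum of these 9, in raw TPM, was 88.5 TPM in pool 1 and 68.8 TPM in pool 2, higher in pool 1 as for nearly every companion list. Tlx3 (0.53) and Prrxl1 (0.48) are on both the interneuron list and that of genes regulated by Pou4f1, so these lists are not independent either. Pou4f1 lay on the same side as the medians of both, and the part of either cell type in its level was not tested.

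Genes of the other tissues in which class 3 and class 4 factors act were mixed. Of 6 hair cell genes, the setting of Pou4f3, 4 were detected, led by Atoh1 (21.9 and 17.3 TPM), which also marks the rhombic lip, and Myo6 (11.0 and 10.9), and the median ratio was -0.17 with 1 of 4 above the median gene. Gfi1, the lowest, had 4 counts in pool 1 and 7 in pool 2. Of 6 genes of otic epithelium and mesenchyme, the mesenchyme being the setting of Pou3f4, 6 were detected, with a median of -0.25 and 1 above the median gene. That gene, Oc90, was 2.02-fold higher in pool 1 (105 and 47.6 TPM), whereas Prrx1 (38.7 and 48.3) and, lowest, Otx1 were higher in pool 2. The raw sum of the 6 was nevertheless higher in pool 1, at 170 TPM against 125 TPM in pool 2. Schwann precursor genes, the lineage in which Pou3f1 times myelination, were detected in 4 of 8. Pmp22 was level (43.6 and 44.1 TPM), Sox10 was 1.53-fold higher in pool 1 (12.7 and 7.31), S100b was lowest (0.32 and 0.31), and the median ratio was -0.0021. Cranial motor neuron genes, 5 of 7 detected, had a median of -0.0011, with Foxp1 at 61.3 and 64.1 TPM, Isl1 next, Mnx1 lowest at 0.24 and 0.51, and Isl2 just past 1.5-fold higher in pool 1 (17.7 and 10.6). The part of any of these tissues in the POU differences was not tested.

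**Figure D5:**
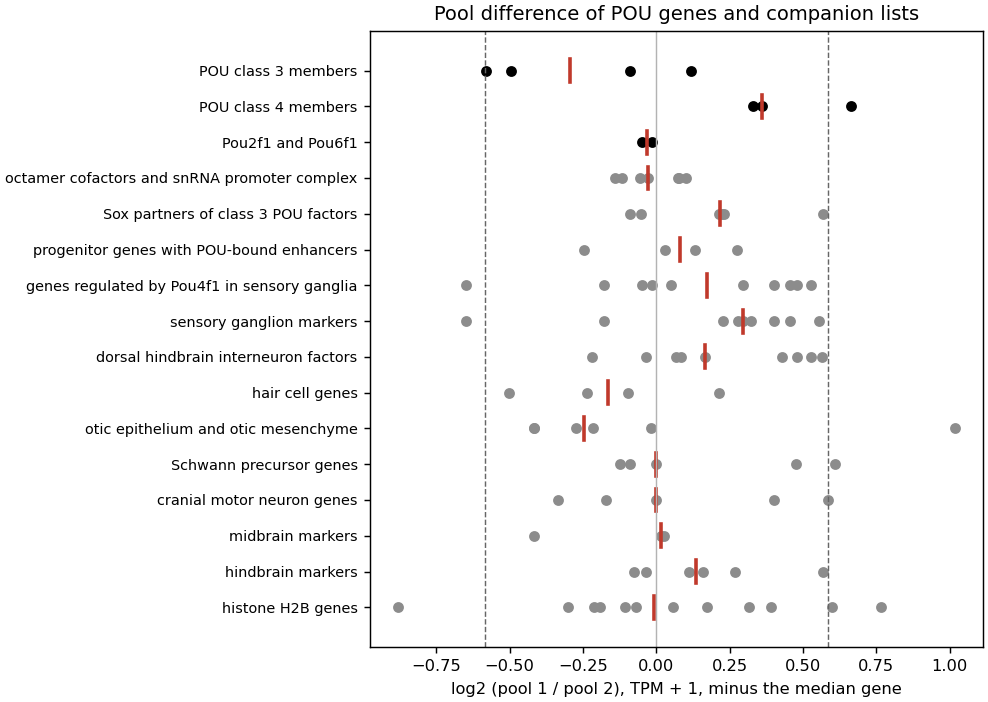
Pool difference (log2 of pool 1 over pool 2 on TPM + 1, minus the median gene) of POU genes (black) and of companion genes averaging 1 TPM or more (grey), 1 row per list, with the list's median as a red bar and 1.5-fold as dashed lines. Class 4 (median 0.36) lies on the side of pool 1. So do the ganglion markers (0.29), Sox partners (0.22), dorsal interneuron factors (0.17) and hindbrain markers (0.13), among others. The hair cell (-0.17) and otic (-0.25) lists lie on the side of pool 2. Class 3 has a median of -0.29, with Pou3f3 at -0.09 and Pou3f1 at 0.12.

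Genes listed as partners or targets of the class 3 factors were detected at widely differing levels. All 6 Sox genes of the neural lineage that can pair with them were detected, with Sox11 at 548 TPM in pool 1 and 541 TPM in pool 2, Sox4 at 115 and 92.1 TPM and Sox1 lowest at 3.97 and 3.78 TPM. Their median ratio was 0.22, with 4 of 6 above the median gene, and none was past 1.5-fold. Of 4 progenitor genes listed for POU-bound enhancers, which are best known at Nes and Dll1, 4 were detected, led by Fabp7 (1016 and 923 TPM) and Nes (52.2 and 57.6) with a median of 0.08. Both medians lay on the side of pool 1, unlike Pou3f2 and Pou3f4, and Nes (-0.25) lay on that of pool 2.

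The cofactors through which Pou2f1 acts on snRNA and histone genes were level between the pools, as Pou2f1 was. Of 8 such genes 7 were detected, led by Snapc3 (63.4 and 63.8 TPM) and Hcfc1 (54.3 and 52.3), with a median ratio of -0.03. Pou2af1, the B cell coactivator, had 0 counts in both pools. Of 15 histone H2B genes 10 were detected, led by Hist3h2ba (81.1 and 78.8 TPM) and Hist1h2bc (32.2 and 34.7), with Hist1h2ba at 0 counts and a median of -0.01. Of the 12 averaging 1 TPM or more, 2 were past 1.5-fold higher in pool 1 and 1 in pool 2. The shares of all such genes were 1.63% and 4.35%. Those H2B genes past it had few counts, from 5.33 to 32.6 in a pool. Among all genes averaging 1 TPM or more with 20 to 100 counts, 15% were past that fold either way. H2B genes are near-identical copies whose reads the quantification divides, so single members are uncertain.

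Among mouse POU genes outside the set of 9, Pou2f2 had a level within the range of the members. Pou2f2, or Oct2, known from B cells and neurons, had 29.8 TPM in pool 1 (1664 counts) and 34.8 TPM in pool 2 (1856 counts), a level between those of Pou3f2 and Pou2f1. Pou5f2 stood at 0.63 and 0.66 TPM, and Pou1f1, the pituitary factor, had 0 counts in pool 1 and 3 in pool 2. Pou2f3 and the pluripotency gene Pou5f1 had 0 counts in both pools, where up to 3 counts would remain compatible with counting error.

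Among genes near the POU genes, Pantr1 beside Pou3f3 had the highest level. Within 10 kb of the 9 genes lie 13 other annotated genes, 5 of them overlapping, of which 9 were measured and 3 reached 1 TPM in both pools. Pantr1, a long intergenic non-coding RNA transcribed away from Pou3f3, starts 926 nt from it on the other strand (chromosome 1, 42590782 to 42694842). It had 395 TPM in pool 1 (5994 counts) and 354 TPM in pool 2 (5118 counts), and its ratio (0.05), like that of Pou3f3, was near the median gene. Its transcript Pantr1-209, 615 nt long, held 57.0% and 60.6% of it. Pantr2, 3885 nt beyond Pou3f3 and also on the other strand, had 15.99 TPM in pool 1 and 12.85 TPM in pool 2. Rnf219, a coding gene 9537 nt upstream of Pou4f1, had 27.95 and 23.45 TPM.

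Transcripts that overlap POU genes cannot be separated from them with certainty, since strand is not stated. Their levels were low: Cd247, which overlaps Pou2f1, had 0.63 TPM in pool 1 and 0.85 TPM in pool 2, AC122898.1, overlapping Pou3f3 on its own strand, 0.84 and 0.84 TPM, and Gm27209, antisense to Pou6f1, 0.30 and 0.40 TPM. Gm2164, antisense to Pou3f1, and Gm26665, 282 nt from Pou2f1, had 0 counts in both pools. Gm17976, a processed pseudogene inside Pou2f1, had 12 counts in pool 1 and 59 in pool 2. The neighbours Gm30731, Gm44593, D130079A08Rik and Gm49492 were not analysed here.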

How the data were processed

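The authors deposited 1 gene table and 1 transcript table per library. Per the file headers they hold expected counts, TPM, FPKM, TPM interval bounds of unstated level and, for transcripts, an isoform percent. Per the readme beside them, values derive from transcriptome alignments to mm10 with GENCODE M4. Aligner, quantification tool and strand setting: not given in the sources used here. Deposited TPM is relative to all entries, spike-ins included. Symbols, biotypes and 1-based coordinates came from GENCODE vM21 (GRCm38), with 42462 of 43346 identifiers matched. Promoter windows came from RefSeq.

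Levels were compared as log2(TPM + 1), centred on genes averaging 1 TPM or more, and genes over 1.5-fold apart were counted. Replicates are separate pools of embryos in 1 group, so no test was run. Isoform shares are transcript TPM over the gene's sum. Named were all members, genes within 10 kb, the 2 highest and 1 lowest of each list with those over 1.5-fold that average 5 TPM or more, and transcripts at 10% or more. Some genes that this rule selects are not reported here. Runx1, Avil, Tlx3, Prrxl1, Sox2, Hoxb2, Gbx2, Pou5f2, Pou1f1 and Pou5f1 were named after their values were seen. Members and lists were chosen with earlier results of these data known.

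Scaling alternatives used edgeR 4.0.16 and DESeq2 1.42.0 in R 4.3.3 on rounded counts. Python 3.11.15 with pandas 2.3.3 did the rest, tested on simulated data.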

Additional observations from a re-analysis of the deposited data

How the results depend on the processing

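The count of POU genes over 1.5-fold apart, 1 as reported, was 2 at a pseudocount of 0.1 and 2 with TPM rescaled over protein-coding nuclear genes (Pou3f4 and Pou4f3), 0 with FPKM, 0 with DESeq2 scaling, 0 at 2-fold, and 3 at 1.25-fold among genes with 1000 counts, a limit added after seeing the data (Pou3f2, Pou3f4 and Pou4f1). For Pou4f3, 73 and 15 counts limit the precision, and its log2 ratio ranged from 0.52 to 1.75. Each of Pou3f1, Pou3f2, Pou3f3, Pou3f4, Pou4f1, Pou4f2 and Pou4f3 kept its direction in 6 of 6 alternatives, and Pou2f1 and Pou6f1, close to 0, in 5 of 6: with no filter on low values their log2 ratios turned to 0.04 and 0.0079. FPKM and the other scalings differ from TPM by about 1 constant per library, which centring on the median gene removes. Under them a kept direction was nearly fixed in advance and is no check of the scaling. Their differing counts past the fold come mainly from the added 1 acting on values of another scale. Scaling moved the median gene's log2 ratio from 0.11 to as low as -0.02, and POU differences are relative to it. The log2 difference between class 3 and class 4, 0.79, was 2.41 by medians over members, and after seeing the data 2.23 over coding transcripts and 1.88 with each gene's counts on its longest coding transcript; with either pool left out it ranged from 0.43 to 1.16. The count of detected genes ranged from 8 to 9 with either pool left out, the share of Pou4f1-202 from 68.3% to 68.4%, that of Pou2f1-209 from 41.4% to 55.3% and that of Pou6f1-208 from 26.5% to 33.7%. No paired analysis was possible because both libraries belong to 1 group and no comparison between groups exists.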
